A study of Mus musculus with 12 samples.

Results

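The 8 genes described here are Srebf2, which encodes the transcription factor SREBP2, and 7 genes known as its targets, namely Insig1, Hmgcs1, Idi1, Fdps, Sqle, Lss and Cyp51. They were taken by gene symbol from a table of 54345 genes. All 8 were found there and all 8 were among the 25044 genes tested. The cells were H9c2(2-1), a clonal myoblast line from embryonic heart that the study calls rat and the labels call mouse, without any introduced mutation. Of the 12 libraries, 3 came from untreated cells (Unt), 3 from cells given doxorubicin (DOX), 3 from cells given DOX with dexrazoxane (D_DXZ) and 3 from cells given DOX with magnesium hexacyanoferrate nanocatalysts (D_MgHCF), all after 6 h. Doxorubicin is an anthracycline used in cancer chemotherapy, dexrazoxane (DXZ) is the cardioprotective agent used with it in the clinic, and MgHCF is the iron-capturing material that the study made. The doses in the sequenced cells are not given in the sources used here, and nothing says whether the 3 libraries of a group came from separate cultures, so the p-values measure the spread between libraries, which may be technical.

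Cells make cholesterol from acetyl-CoA through mevalonate, isoprenoid diphosphates, squalene and lanosterol. SREBP2 is made as a membrane protein of the endoplasmic reticulum, where it is bound by its escort Scap and, when sterols are plentiful, held back by Insig proteins. When sterols run short, Scap carries it to the Golgi, proteases release its soluble part, and this part turns on genes of cholesterol synthesis and uptake and Srebf2 itself. Messenger levels do not show how much of the protein is in its active form, and no protein was measured in these libraries.

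The promoters of 5 of these genes are printed with the matches found to motifs of SREBP2 and its partner factors. They are from genes that came out lower (Hmgcs1, Insig1) and higher (Srebf2, Idi1, Lss) in the DOX group. They are the 250 bases before the RefSeq start site in mouse build GRCm38.p6, all on the + strand, at chr13:119690101-119690350 for Hmgcs1, chr5:28071162-28071411 for Insig1, chr15:82147019-82147268 for Srebf2, chr13:8885356-8885605 for Idi1 and chr10:76531355-76531604 for Lss. Capitals mark the motifs searched on both strands, which were TCACNCCAC (a sterol regulatory element), CCAAT (an NF-Y box, which reads ATTGG on the other strand) and GGGCGG (a GC box, which reads CCGCCC on the other strand).
Hmgcs1: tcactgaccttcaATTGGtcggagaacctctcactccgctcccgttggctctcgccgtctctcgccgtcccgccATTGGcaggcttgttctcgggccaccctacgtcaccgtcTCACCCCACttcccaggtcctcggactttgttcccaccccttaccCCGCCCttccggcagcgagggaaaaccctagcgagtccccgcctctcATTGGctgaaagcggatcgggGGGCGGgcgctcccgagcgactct
Insig1: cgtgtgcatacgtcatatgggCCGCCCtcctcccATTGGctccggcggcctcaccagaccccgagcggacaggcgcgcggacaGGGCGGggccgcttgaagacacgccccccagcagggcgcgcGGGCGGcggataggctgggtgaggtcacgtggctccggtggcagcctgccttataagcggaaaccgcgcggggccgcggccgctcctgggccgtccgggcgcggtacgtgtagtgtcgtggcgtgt
Srebf2: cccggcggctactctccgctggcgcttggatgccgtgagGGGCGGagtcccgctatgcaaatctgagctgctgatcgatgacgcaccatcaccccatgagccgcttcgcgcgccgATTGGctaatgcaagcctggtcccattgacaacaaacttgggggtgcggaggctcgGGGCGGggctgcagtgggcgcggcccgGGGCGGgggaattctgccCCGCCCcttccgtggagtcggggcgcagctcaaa
Idi1: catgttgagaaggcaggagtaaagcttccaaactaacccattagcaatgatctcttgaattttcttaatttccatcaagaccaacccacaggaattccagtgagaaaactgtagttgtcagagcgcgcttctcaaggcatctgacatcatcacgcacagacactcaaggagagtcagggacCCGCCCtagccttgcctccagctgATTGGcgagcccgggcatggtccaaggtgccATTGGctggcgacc
Lss: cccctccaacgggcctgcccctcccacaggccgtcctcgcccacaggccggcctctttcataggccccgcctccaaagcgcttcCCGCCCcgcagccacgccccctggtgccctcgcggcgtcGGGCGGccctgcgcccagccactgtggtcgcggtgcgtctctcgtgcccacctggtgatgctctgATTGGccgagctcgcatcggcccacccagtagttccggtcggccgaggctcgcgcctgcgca
The search covered these bases and the 50 that follow them. Of the 6 members with a promoter in the RefSeq table, Hmgcs1 held TCACNCCAC, starting 137 bases before the start site, and these letters were in none of the windows of Insig1, Srebf2, Idi1, Lss and Cyp51. The motif was found in 1.24% of all 32851 promoters in the table. CCAAT was found in all 6 windows and in 37.4% of all promoters, with 4 copies in Hmgcs1, 2 in Idi1 and 1 in each of the others. GGGCGG was also found in all 6 windows and in 35.7% of all promoters, with 5 copies in Srebf2, 3 in Hmgcs1, 3 in Insig1, 2 in Lss, 1 in Idi1 and 1 in Cyp51. These are matches of letters in the mouse sequence and do not show that a factor was bound. Sterol regulatory elements with letters other than TCACNCCAC were not searched for, so a window without a match may still hold one.

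Expression was given as FPKM (fragments per kilobase of gene, divided by a measure of library size), which the authors had scaled between libraries. Each library had between 16626514 and 19365119 reads on genes, and the reads behind a member ranged from 66 in the lowest library for Fdps to 9233 in the highest for Srebf2. The library size implied by the FPKM was larger than these totals in Unt (1.32 to 1.38 times) and D_MgHCF (1.26 to 1.43 times) and smaller in DOX (0.647 to 0.784 times) and D_DXZ (0.747 to 0.892 times). Every comparison of DOX or D_DXZ with the other groups therefore depends on that scaling. Values under other scalings are given below where they turn the direction of a called member, and for some genes of the other lists. D_MgHCF replicate 3 stood apart, since its correlation with replicates 1 and 2 over the genes tested was 0.942 and 0.964, while the lowest between replicates of the other groups was 0.989. Of the 8 myoblast markers, Vim, Acta2, Tpm1 and Tpm2 were at 34.6 FPKM or more on average in every group, Des averaged 1.46 FPKM in Unt, 0.552 in DOX, 0.542 in D_DXZ and 0.861 in D_MgHCF, and the lineage factors Myod1, Myog and Myf5 were at or near 0. The summed FPKM of this list moved with the groups: the Unt libraries lay between 581 and 706 and the D_MgHCF libraries between 415 and 719, against 2842 to 3847 for DOX and 2355 to 3149 for D_DXZ. Des was lowest where the sum was high. Gata4 was the only 1 of 6 cardiomyocyte markers with at least 1 FPKM in every library, at 10.3 on average in Unt, 3.35 in DOX, 2.93 in D_DXZ and 19.2 in D_MgHCF. Tnnt2, of the same list, went the other way from Gata4 in DOX and D_DXZ. It averaged 0.133 FPKM in Unt, 0.903 in DOX, 0.495 in D_DXZ and 0.424 in D_MgHCF. The remaining cardiomyocyte markers averaged at most 0.240 FPKM in any group. The sum of the 6 cardiomyocyte markers, which was mostly Gata4, moved the opposite way to the myoblast sum in DOX and D_DXZ. It lay between 9.81 and 11.0 FPKM in the Unt libraries and between 14.9 and 26.4 in the D_MgHCF libraries. In the DOX libraries it was 3.14 to 5.82, and those of D_DXZ had 3.04 to 4.29. The 5 markers of other cell types summed to at most 1.59 FPKM in any library. The part of these shifts in the results below was not tested, and in bulk RNA fewer cells of a type and less RNA per cell cannot be told apart.

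Changes were tested with limma on log2(FPKM + 1), with p-values adjusted by the Benjamini-Hochberg method over all genes tested, and a gene was called at an adjusted p under 0.05. Log2 changes are on this scale, where the added 1 shrinks the change of a gene with a low FPKM.

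The 8 genes did not move as a block after DOX. Compared with the Unt group, the DOX group had more RNA of Srebf2, Idi1, Fdps and Lss and less of Hmgcs1, Sqle and Insig1, while Cyp51 did not pass the test. So 4 of the 8 members were called higher and 3 lower, beside 18.6% of all genes called higher and 19.9% called lower in this comparison. The median log2 change over the members was 0.65, beside 0.00 over all genes tested. This median turned to -0.69 under TPM, -0.40 under quantile normalization and -0.28 for FPKM over summed reads. The medians of 11515 genes with a mean FPKM of at least 1 were -1.03, 0.03 and -0.69 in the same order. Under other scalings the members split as 2 higher and 4 lower (TPM), 3 and 3 (quantile normalization) or 3 and 4 (FPKM over summed reads). The shares of all genes called higher and lower under these scalings were 4.39% and 40.1%, 16.7% and 17.5%, and 8.28% and 33.1%.

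**Figure D1:**
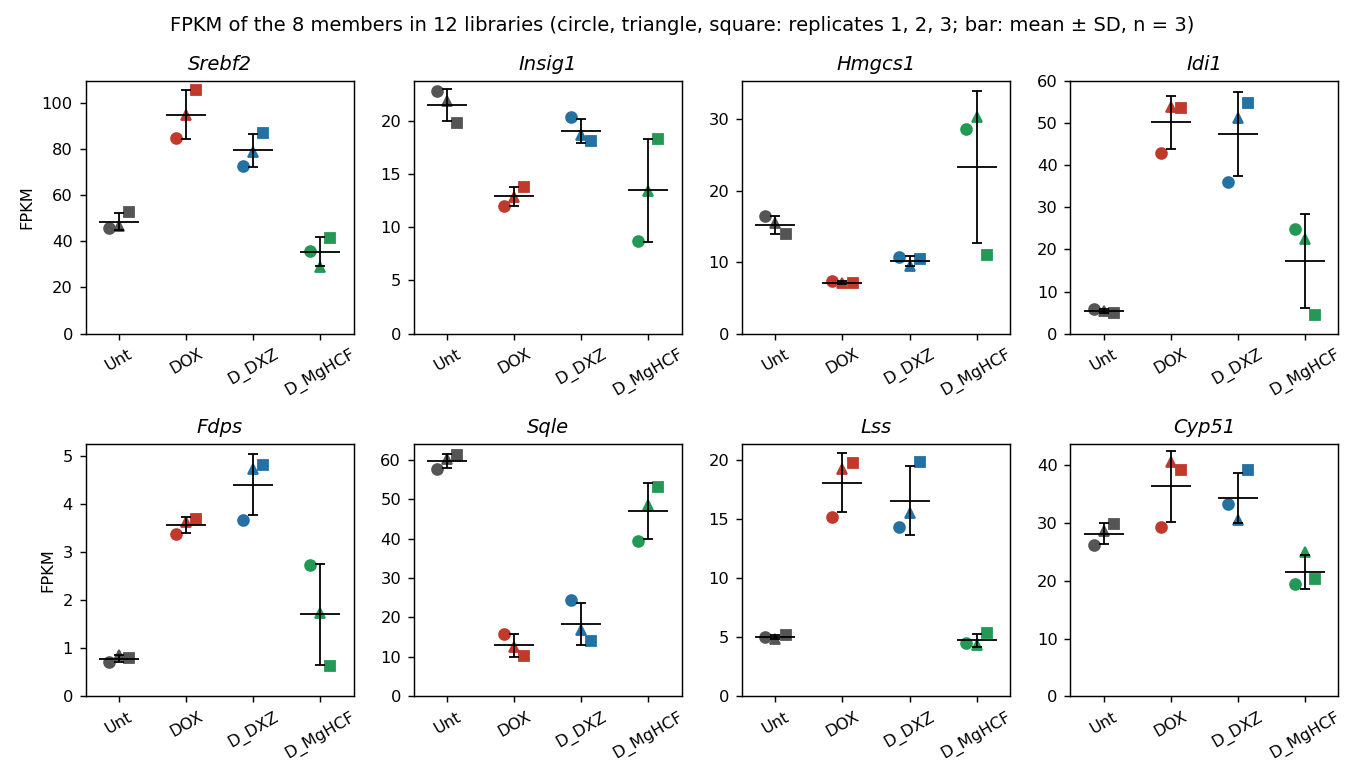
FPKM (y axis, from 0, a scale for each panel) of the 8 members in the 12 libraries, grouped by treatment on the x axis; points are libraries and bars are the group mean ± SD (n = 3). Sqle, Hmgcs1 and Insig1 were lower in DOX than in Unt, Srebf2, Idi1, Fdps and Lss were higher, and D_MgHCF replicate 3 (square) lay near the Unt libraries for Idi1 and Fdps.

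Srebf2 lies at chr15:82147181-82205379 in GRCm38 (+ strand, ENSMUSG00000022463), and its intron-borne microRNA gene Mir33 lies inside the same interval. Its FPKM was 45.8, 46.7 and 52.6 in Unt, 84.6, 94.5 and 106 in DOX, 72.8, 78.6 and 86.9 in D_DXZ and 35.9, 28.8 and 41.6 in D_MgHCF. The Unt libraries lay below all DOX and D_DXZ libraries and above all D_MgHCF libraries. The log2 change was 0.95 ± 0.14 (SE, adjusted p = 0.00026) in DOX and 0.70 ± 0.14 (adjusted p = 0.00247) in D_DXZ against Unt, and -0.45 ± 0.14 (adjusted p = 0.0261) in D_MgHCF against Unt. The rise in DOX was not kept under other scalings, where the change was -0.39 (TPM, adjusted p = 0.0527), -0.30 (quantile normalization, adjusted p = 0.0957) or 0.02 (FPKM over summed reads, adjusted p = 0.982). The median of 11515 genes with a mean FPKM of at least 1 moved by -1.03 under TPM and by -0.69 over summed reads, and Srebf2 lay above that median by 0.64 and 0.71, beside 0.91 in the deposited FPKM and -0.32 under quantile normalization.

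Insig1, at chr5:28071363-28078662 (+ strand, ENSMUSG00000045294), encodes an anchor that holds the SREBP and Scap complex in the endoplasmic reticulum and is itself an SREBP2 target. Its FPKM was 22.8, 21.9 and 19.8 in Unt, 12.0, 12.9 and 13.8 in DOX, 20.3, 18.7 and 18.1 in D_DXZ and 8.70, 13.4 and 18.3 in D_MgHCF. The DOX libraries lay below all Unt and all D_DXZ libraries, and the D_MgHCF libraries spread across the DOX level. The change in DOX against Unt was -0.70 ± 0.20 (adjusted p = 0.0167). That call was lost without Unt replicate 1 (adjusted p = 0.0572) or DOX replicate 1 (adjusted p = 0.0533) or without a filter (adjusted p = 0.0524), while the change was larger under TPM, at -1.99 (adjusted p = 0.000176). Against DOX, D_MgHCF differed by 0.00 (95% interval from -0.44 to 0.44), a value that became 1.14 under TPM (adjusted p = 0.00591) and 0.90 over summed reads (adjusted p = 0.00887).

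Hmgcs1, at chr13:119690379-119708260 (+ strand, ENSMUSG00000093930), encodes the cytosolic HMG-CoA synthase, an early enzyme of the mevalonate pathway. Its FPKM was 16.4, 15.5 and 13.9 in Unt, 7.33, 7.09 and 7.04 in DOX, 10.7, 9.40 and 10.4 in D_DXZ and 28.7, 30.3 and 11.0 in D_MgHCF. The DOX libraries were close to each other and below every other library, and the D_MgHCF libraries were split, with replicates 1 and 2 above and replicate 3 below all Unt libraries. The change in DOX against Unt was -0.99 ± 0.29 (adjusted p = 0.0198). It was not called when Unt replicate 1 or 2 or DOX replicate 2 or 3 was left out (adjusted p from 0.0531 to 0.0627), with changes from -0.99 to -0.94, nor without a filter (adjusted p = 0.0663) or under quantile normalization (adjusted p = 0.0656). The fall was larger and called under TPM (-2.24, adjusted p = 6.73e-05) and over summed reads (-1.84, adjusted p = 0.000488). The median of 11515 genes also moved by -1.03 and -0.69 under these 2 scalings. Of the 3 genes that share a near-identical stretch with Hmgcs1, Chordc1 (95% over 160 bases) had more than 1 FPKM.

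Idi1, at chr13:8885501-8892451 (+ strand, ENSMUSG00000058258), encodes isopentenyl-diphosphate isomerase, which interconverts the isoprenoid building blocks. Its FPKM was 5.74, 5.42 and 4.79 in Unt, 42.9, 54.0 and 53.7 in DOX, 36.1, 51.4 and 54.8 in D_DXZ and 24.8, 22.4 and 4.39 in D_MgHCF. The mean FPKM in DOX was 9.45 times that in Unt, the largest ratio among the members, and D_MgHCF replicates 1 and 2 lay between the DOX and Unt libraries while replicate 3 lay below Unt. The change in DOX against Unt was 3.01 ± 0.48 (adjusted p = 0.000507), and it was 1.76 under TPM, 2.80 under quantile normalization and 2.13 over summed reads. Against Unt, D_MgHCF differed by 1.23 ± 0.48 (adjusted p = 0.065), and without replicate 3 by 1.96 (adjusted p = 1.88e-05). Another gene, Gm13502, is 100% identical to Idi1 over 684 bases and held 0.536 to 6.61 FPKM, and adding its reads to Idi1 left the DOX change at 3.01.

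Fdps, at chr3:89093588-89101959 (- strand, ENSMUSG00000059743), encodes farnesyl diphosphate synthase, whose product feeds squalene and also protein prenylation, dolichol and ubiquinone. Its FPKM was 0.708, 0.853 and 0.788 in Unt, 3.37, 3.61 and 3.68 in DOX, 3.67, 4.71 and 4.80 in D_DXZ and 2.74, 1.74 and 0.639 in D_MgHCF. The DOX and D_DXZ libraries lay above all others, and D_MgHCF replicate 3 lay below the Unt libraries. The change in DOX against Unt was 1.35 ± 0.25 (adjusted p = 0.00125) and was 0.53 under TPM (adjusted p = 0.114). These levels are uncertain, because 5 other genes share at least 95% of a stretch of 150 or more bases with Fdps. Among them Gm3571 (98.9% identical over 1062 bases) averaged 10.8 FPKM in Unt, 30.1 in DOX, 23.7 in D_DXZ and 14.4 in D_MgHCF, and Gm5873 averaged 2.55, 7.11, 5.30 and 2.81 in the same order. Gm3571 thus had a higher FPKM than Fdps in every group, and how the reads were divided between these genes was not tested. The copies were singled out after their values were seen. With their reads added to Fdps, the change in DOX against Unt was 1.44 (adjusted p = 2.99e-05), and D_MgHCF was 0.44 above Unt (adjusted p = 0.0345).

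Sqle, at chr15:59315077-59331192 (+ strand, ENSMUSG00000022351), encodes squalene epoxidase, an oxygen-requiring enzyme that is regarded as a rate-limiting step. Its FPKM was 57.6, 60.2 and 61.1 in Unt, 15.9, 12.6 and 10.2 in DOX, 24.3, 16.7 and 13.9 in D_DXZ and 39.3, 48.6 and 53.0 in D_MgHCF. The Unt libraries were the highest 3 of the 12, followed by the D_MgHCF libraries, and the DOX and D_DXZ libraries overlapped each other below them. The mean fell to 0.216 of the Unt level in DOX (log2 change -2.15 ± 0.20, adjusted p = 2.19e-05) and to 0.307 in D_DXZ (-1.69 ± 0.20, adjusted p = 0.000167). No near-identical copy of Sqle was found, no library decided the call in DOX, and TPM, quantile normalization and FPKM over summed reads gave -3.45, -3.02 and -3.04.

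Lss, at chr10:76531588-76557138 (+ strand, ENSMUSG00000033105), encodes lanosterol synthase, which closes the sterol rings. Its FPKM was 5.01, 4.87 and 5.16 in Unt, 15.2, 19.2 and 19.8 in DOX, 14.3, 15.5 and 19.8 in D_DXZ and 4.50, 4.32 and 5.39 in D_MgHCF. The D_MgHCF libraries overlapped the Unt libraries, and both groups lay far below the other 6. The change in DOX against Unt was 1.66 ± 0.14 (adjusted p = 1.34e-05), and it was 0.43 under TPM (adjusted p = 0.0288), 1.68 under quantile normalization and 0.80 over summed reads.

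Cyp51, at chr5:4081145-4104746 (- strand, ENSMUSG00000001467), encodes lanosterol demethylase, the cytochrome P450 of the pathway, and its 3′ end overlaps Akap9 on the opposite strand, which held 0.555 to 2.10 FPKM. Whether counting used strand is not given, so reads of that overlap cannot be told apart. Its FPKM was 26.1, 28.6 and 29.8 in Unt, 29.2, 40.5 and 39.2 in DOX, 33.3, 30.6 and 39.2 in D_DXZ and 19.4, 24.9 and 20.3 in D_MgHCF. DOX replicate 1 lay among the Unt libraries, and the D_MgHCF libraries lay below all Unt libraries. The change in DOX against Unt was 0.34 ± 0.15 (adjusted p = 0.0928), it was called without DOX replicate 1 (0.49, adjusted p = 0.0156), and it turned negative under TPM (-0.98, adjusted p = 0.000325), quantile normalization (-0.49, adjusted p = 0.0163) and FPKM over summed reads (-0.58, adjusted p = 0.00572).

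These changes rearranged the order of the members by mean FPKM, a level per length. In Unt the order was Sqle at 59.6, Srebf2 at 48.4, Cyp51 at 28.2, Insig1 at 21.5, Hmgcs1 at 15.3, Idi1 at 5.31, Lss at 5.01 and Fdps at 0.783, with the Idi1 and Lss libraries overlapping. In DOX it was Srebf2 at 94.9, Idi1 at 50.2, Cyp51 at 36.3, Lss at 18.1, Insig1 and Sqle both at 12.9, Hmgcs1 at 7.15 and Fdps at 3.55, where the libraries of Lss, Insig1 and Sqle overlapped in part. In D_DXZ it was Srebf2 at 79.4, Idi1 at 47.4, Cyp51 at 34.3, Insig1 at 19.1, Sqle at 18.3, Lss at 16.5, Hmgcs1 at 10.2 and Fdps at 4.39, with overlaps between Idi1 and Cyp51 and among Insig1, Sqle and Lss. In D_MgHCF it was Sqle at 47.0, Srebf2 at 35.5, Hmgcs1 at 23.3, Cyp51 at 21.5, Idi1 at 17.2, Insig1 at 13.5, Lss at 4.74 and Fdps at 1.70, and the libraries of neighbours from Sqle to Insig1 overlapped, each with the next. Levels set between genes also depend on how many reads of rat cells matched each mouse gene, which was not tested.

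Between D_DXZ and DOX no member passed the test, and limma called 0% of all genes higher and 0% lower in this comparison, with 2388 of 25044 genes at an unadjusted p under 0.05 and a smallest adjusted p of 0.087. At the unadjusted threshold 2 members passed, Insig1 at 0.53 (95% interval from 0.09 to 0.97) and Sqle at 0.46 (from 0.01 to 0.91), both higher in D_DXZ with adjusted p of 0.463 and 0.515, and voom on the recovered reads called none after adjustment. The intervals of the other 6 covered 0, the widest being that of Idi1, from -1.17 to 0.98. Compared with Unt, D_DXZ had 4 members called higher (Srebf2, Idi1, Fdps and Lss) and 1 lower (Sqle), beside 15.9% and 18% of all genes, and the split was 3 higher and 5 lower under TPM (beside 3.66% and 39.6% of all genes), 3 and 1 under quantile normalization (14% and 14.7%) and 3 and 4 over summed reads (7.64% and 31.7%). Hmgcs1 and Insig1, called lower in DOX, differed from Unt in D_DXZ by -0.54 ± 0.29 (adjusted p = 0.211) and -0.17 ± 0.20 (adjusted p = 0.648). Neither gene was called here, but Hmgcs1 was called lower in a fit of the 2 groups alone (adjusted p = 0.00453), without D_MgHCF replicate 3 (adjusted p = 0.000331), under TPM (-1.65, adjusted p = 0.000606) and over summed reads (-1.24, adjusted p = 0.00665). Insig1 was called lower under TPM (-1.31, adjusted p = 0.00312) and over summed reads (-0.89, adjusted p = 0.0124).

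**Figure D2:**
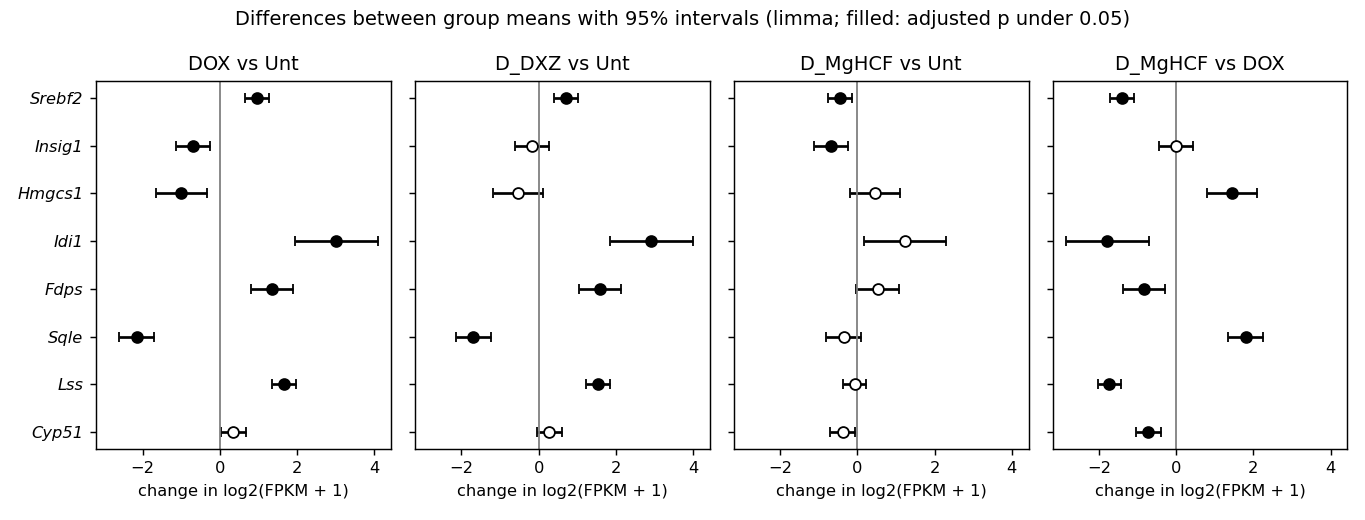
Differences in log2(FPKM + 1) (x axis) for the 8 members (y axis) in 4 comparisons, with 95% intervals from limma; filled points passed an adjusted p under 0.05. In D_MgHCF against DOX the points for Hmgcs1 and Sqle lie right of 0 and those of 5 members lie left of it, and in D_MgHCF against Unt 2 members, Srebf2 and Insig1, were called.

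In D_MgHCF against DOX, Hmgcs1 and Sqle were higher and Srebf2, Idi1, Fdps, Lss and Cyp51 lower, so 2 members were called higher and 5 lower, beside 31.4% and 20.1% of all genes. The median change over the members was -0.78, beside 0.07 over all genes tested. This median was 0.22 under TPM, -0.19 under quantile normalization and 0.02 over summed reads. The medians of 11515 genes with a mean FPKM of at least 1 were 0.87, -0.06 and 0.67 in the same order. This comparison uses the same DOX libraries as that of DOX with Unt, so the values of both are given side by side without a test between them. Sqle changed by -2.15 in DOX against Unt and by 1.80 ± 0.20 in D_MgHCF against DOX (adjusted p = 4.93e-05). Lss changed by 1.66 and by -1.73 ± 0.14 (adjusted p = 7.49e-06), Srebf2 by 0.95 and by -1.40 ± 0.14 (adjusted p = 2.25e-05), and Hmgcs1 by -0.99 and by 1.46 ± 0.29 (adjusted p = 0.00197). Idi1 changed by 3.01 and by -1.78 ± 0.48 (adjusted p = 0.0108), Fdps by 1.35 and by -0.83 ± 0.25 (adjusted p = 0.0176), and Cyp51 by 0.34 and by -0.72 ± 0.15 (adjusted p = 0.00198). Without DOX replicate 3, Fdps was no longer called (adjusted p = 0.0513). Without D_MgHCF replicate 3 the changes of Idi1 and Fdps were smaller, at -1.05 (adjusted p = 0.000578) and -0.51 (adjusted p = 0.0167), and in a fit of the 2 groups alone neither was called (adjusted p = 0.0661 and 0.0914). Hmgcs1 and Sqle were also called higher, and Lss lower, under TPM, quantile normalization and FPKM over summed reads. Under TPM the changes of Srebf2 (-0.21, adjusted p = 0.246), Idi1 (-0.63, adjusted p = 0.235) and Fdps (-0.013, adjusted p = 0.97) were not called. Idi1 was also not called under quantile normalization (-1.14, adjusted p = 0.146) or over summed reads (-0.86, adjusted p = 0.137), nor Fdps over summed reads (-0.17, adjusted p = 0.585), nor Cyp51 under quantile normalization (-0.033, adjusted p = 0.883). The members split as 4 higher and 1 lower under TPM (beside 53.2% and 6.7% of all genes), 2 and 3 under quantile normalization (18.5% and 19.7%) and 3 and 2 over summed reads (49.4% and 9.59%), with Cyp51 at 0.46 (TPM, adjusted p = 0.026) and 0.21 (summed reads, adjusted p = 0.202).

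In D_MgHCF against D_DXZ, which compares both additions to DOX, Hmgcs1 (1.00 ± 0.29, adjusted p = 0.0169) and Sqle (1.34 ± 0.20, adjusted p = 0.000389) were higher and the other 6 members lower, beside 29.4% and 19% of all genes. The lower call of Insig1 (-0.53, adjusted p = 0.0495) was lost when any 1 of 11 of the 12 libraries was left out, the exception being D_MgHCF replicate 3. Hmgcs1 was not called without D_DXZ replicate 2 or D_MgHCF replicate 1 or 2 (adjusted p from 0.0521 to 0.0684), nor Idi1 without D_DXZ replicate 3 (adjusted p = 0.051). Idi1 changed by -1.69 here and by -0.96 without D_MgHCF replicate 3 (adjusted p = 0.00113). The split was 2 higher and 1 lower under TPM (beside 50.5% and 6.14% of all genes), 2 and 3 under quantile normalization (18.2% and 19.4%) and 2 and 2 over summed reads (45.6% and 9.51%).

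Compared with Unt, D_MgHCF had no member called higher and 2 lower, Srebf2 and Insig1 (-0.69 ± 0.20, adjusted p = 0.0194), beside 24.3% and 15.7% of all genes. Lss differed from Unt by -0.07 (95% interval from -0.38 to 0.23) and Sqle by -0.35 (from -0.80 to 0.10). This comparison depended on D_MgHCF replicate 3, since without it 3 members were higher than in Unt, namely Hmgcs1 (0.91, adjusted p = 2.37e-05), Idi1 (1.96) and Fdps (0.84, adjusted p = 0.00133), and 2 were lower, beside 33.4% and 18.7% of all genes. Without D_MgHCF replicate 1 the change of Insig1 was -0.43 (adjusted p = 0.0284). The calls of this comparison also depended on the Unt libraries, because 1, 0 and 1 members were called without Unt replicates 1, 2 and 3. The shares of all genes called in these fits are not given here, so the counts do not set the members apart from other genes. Srebf2 was not called without D_MgHCF replicate 2 (adjusted p = 0.0885). Cyp51 (-0.38, adjusted p = 0.0609) was called without DOX replicate 1 or D_MgHCF replicate 2 (adjusted p = 0.0323 and 0.0406). Under quantile normalization 1 member was higher and 3 were lower, beside 16.8% and 18.6% of all genes.

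**Figure D3:**
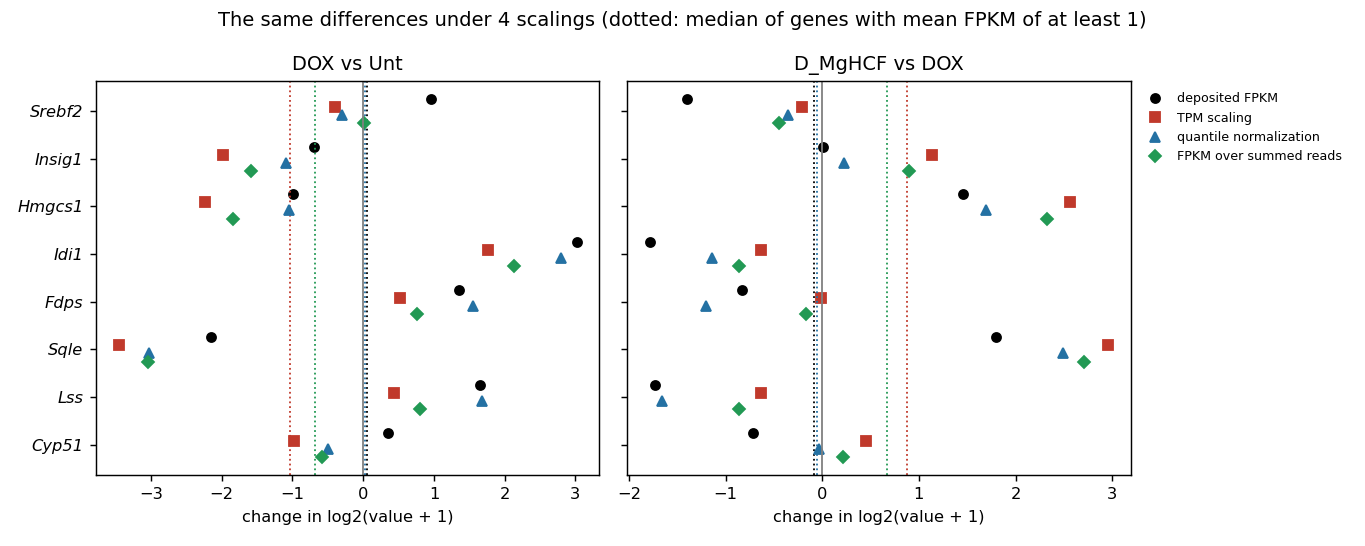
Differences in log2(value + 1) (x axis) for the 8 members (y axis) in DOX against Unt and in D_MgHCF against DOX, under the deposited FPKM and 3 other scalings; dotted lines are the median of 11515 genes under each. In DOX against Unt, Sqle, Hmgcs1 and Insig1 lie left of 0 and Idi1, Fdps and Lss right of 0 under all 4 scalings, while Srebf2 and Cyp51 lie on both sides.

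The ratio of a member to Srebf2 within a library does not contain the scaling between libraries, and it is described here with no test. For Sqle the log2 ratio of FPKM was 0.33, 0.36 and 0.22 in Unt, -2.41, -2.91 and -3.38 in DOX, -1.58, -2.23 and -2.64 in D_DXZ and 0.13, 0.75 and 0.35 in D_MgHCF. Sqle thus stood above Srebf2 in every Unt and D_MgHCF library and below it in every DOX and D_DXZ library. The ratio of Hmgcs1 was lower in DOX than in Unt by 2.06 log2 units (a difference of -2.06 between the means), that of Insig1 by 1.71 (-1.71) and that of Cyp51 by 0.62 (-0.62). The ratio was higher in DOX than in Unt by 2.27 for Idi1, 1.22 for Fdps and 0.87 for Lss. Between DOX and D_MgHCF the difference was 3.31 for Sqle, 3.0 for Hmgcs1, 1.43 for Insig1 and 0.68 for Cyp51, beside 0.14 for Fdps, -0.46 for Idi1 and -0.50 for Lss. D_DXZ lay between DOX and Unt for Insig1, at -1.84, -2.07 and -2.26, with DOX at -2.81, -2.88 and -2.94 and Unt at -1.0, -1.09 and -1.41. In D_MgHCF replicate 3 the ratios of Idi1 (-3.24) and Fdps (-6.02) were at the level of the Unt libraries, while replicates 1 and 2 were at -0.54 and -0.36 for Idi1 and at -3.71 and -4.05 for Fdps.

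**Figure D4:**
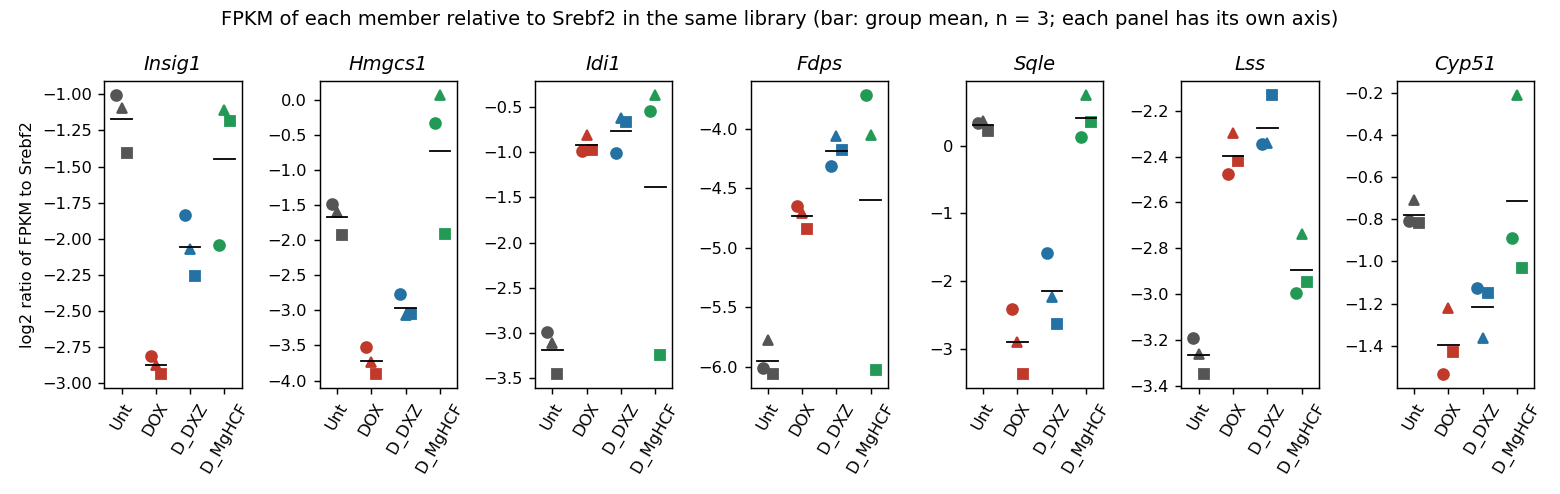
Log2 ratio of the FPKM of 7 members to that of Srebf2 in the same library (y axis, a scale for each panel) by group (x axis); points are libraries and lines are group means (n = 3). The DOX libraries lie below the Unt libraries for Insig1, Hmgcs1, Sqle and Cyp51 and above them for Idi1, Fdps and Lss.

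Among the other 15 enzymes of cholesterol synthesis, 10 were called higher and 2 lower in DOX against Unt, beside 18.6% and 19.9% of all genes, with a median log2 change of 1.10. That median was -0.20 under TPM, 0.72 under quantile normalization and 0.20 over summed reads. The split turned to 4 higher and 7 lower under TPM and was 10 and 3 under quantile normalization and 6 and 4 over summed reads. Among those lower was Msmo1 (-1.11 ± 0.26, adjusted p = 0.00576), a methylsterol oxidase that follows Cyp51. The largest rises were those of Hsd17b7, a sterone reductase (2.13 ± 0.26, adjusted p = 9.72e-05), and Acat2, the acetyl-CoA acetyltransferase that opens the pathway (2.05 ± 0.13, adjusted p = 1.06e-05), and both were also called higher under TPM, quantile normalization and FPKM over summed reads. Between DOX and D_MgHCF 3 rose and 8 fell, beside 31.4% and 20.1% of all genes, against 9 and 2 under TPM, 5 and 6 under quantile normalization and 8 and 3 over summed reads. Tm7sf2, a sterol reductase, was among those higher (0.60 ± 0.23, adjusted p = 0.0479), and Acat2 (-1.82 ± 0.13, adjusted p = 4.69e-06) and Nsdhl, a sterol dehydrogenase (-1.72 ± 0.15, adjusted p = 1.3e-05), had the largest falls. Without D_MgHCF replicate 3 the split was 2 higher and 8 lower, beside 38% and 21.2% of all genes.

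Of 10 factors that control the SREBPs, 5 were called higher and 2 lower in DOX against Unt, beside 18.6% and 19.9% of all genes, while the split was 1 and 7 under TPM, 2 and 2 under quantile normalization and 1 and 4 over summed reads. Scap, the escort, averaged 9.79 FPKM in Unt and 21.4 in DOX (1.06 ± 0.13, adjusted p = 9.29e-05), a change that was -0.22 under TPM. Insig2, the second retention protein, differed by 0.53 ± 0.20 (adjusted p = 0.0584) and was not called. Its own value under TPM is not given here. The median change of the 10 factors was 0.58 in the deposited FPKM and -0.73 under TPM. The ubiquitin ligases Rnf139 and Rnf145 fell by 1.91 and 0.92 on the log2 scale (adjusted p = 8.69e-05 and 8.48e-05), under all 4 scalings. The coat protein gene Sec23a rose by 1.63 (adjusted p = 1.13e-05), and Mbtps1, which encodes the first protease that cuts SREBPs, rose by 1.28 (adjusted p = 0.00146), a change that was -0.05 under TPM. Between DOX and D_MgHCF 3 rose and 6 fell, beside 31.4% and 20.1% of all genes. The split was 5 and 3 under TPM, 2 and 5 under quantile normalization and 4 and 4 over summed reads. Srebf1, the gene of the sister factor SREBP1, was at 47.0, 47.0 and 46.1 FPKM in DOX and at 129, 102 and 76.5 in D_MgHCF (1.08 ± 0.16, adjusted p = 0.000284), and at 27.9, 29.4 and 31.8 in Unt. Rnf139 rose by 1.85 (adjusted p = 9.62e-05), and Mbtps1 fell by 1.65 (adjusted p = 0.00025). Scap differed by -0.84 (adjusted p = 0.000349) and Insig2 by -0.83 (adjusted p = 0.00526), values that were 0.30 and 0.31 under TPM.

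Of 10 genes of cholesterol uptake and intracellular cholesterol transport, 2 were higher and 6 lower in DOX against Unt, beside 18.6% and 19.9% of all genes. In D_MgHCF against DOX 6 were higher and 2 lower, beside 31.4% and 20.1% of all genes. Under TPM these splits were 1 and 8, and 9 and 0. Under quantile normalization they were 3 and 5, and 5 and 2, and over summed reads 2 and 8, and 8 and 1. The sterol carriers Gramd1b (-1.61, adjusted p = 2.08e-05) and Osbp (-1.29, adjusted p = 1.09e-05) had the largest falls in DOX, and the lysosomal genes Npc2 (2.16, adjusted p = 1.49e-05) and Lipa (1.58, adjusted p = 1.73e-05) the only rises called among the 10. In D_MgHCF against DOX, Osbp rose by 1.29 (adjusted p = 3.68e-06), while Lipa changed by -1.21 (adjusted p = 6.01e-05, and -0.027 under TPM) and Npc2 by -0.85 (adjusted p = 0.00321), the latter at 0.36 under TPM.

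Of 6 genes of sterol efflux, liver X receptors (LXRs) and esterification, none was higher and 1 lower in DOX against Unt, beside 18.6% and 19.9% of all genes. In D_MgHCF 3 were higher than in DOX and none lower, beside 31.4% and 20.1% of all genes. In DOX against Unt none was higher under any scaling, and 5 were lower under TPM, none under quantile normalization and 4 over summed reads. In D_MgHCF against DOX 5 were higher under TPM and over summed reads and 3 under quantile normalization, with none lower. The gene lower in DOX was Mylip, which encodes a ubiquitin ligase (-1.60 ± 0.40, adjusted p = 0.00796). Under quantile normalization Mylip was not called (adjusted p = 0.0765). Mylip (2.16 ± 0.40, adjusted p = 0.00112) and Abca1, the cholesterol efflux pump (1.64 ± 0.24, adjusted p = 0.000243), had the largest rises in D_MgHCF against DOX, with Abca1 at 0.309 FPKM in DOX and 3.25 in D_MgHCF. The D_MgHCF libraries were spread, at 18.8, 14.8 and 4.40 FPKM for Mylip and 4.77, 3.33 and 1.66 for Abca1. For Mylip, D_MgHCF replicate 3 lay below every Unt library (6.49, 7.09 and 7.71).

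Of 11 genes that draw on the isoprenoids, 5 were higher and 2 lower in DOX against Unt, beside 18.6% and 19.9% of all genes. The split was also 5 and 2 under quantile normalization (beside 16.7% and 17.5% of all genes). It was 0 and 9 under TPM (4.39% and 40.1%) and 0 and 7 over summed reads (8.28% and 33.1%). The 2 with the largest rises were Coq2, of ubiquinone synthesis (1.05 ± 0.36, adjusted p = 0.042, and -0.26 under TPM), and Fntb, a farnesyltransferase subunit (0.91 ± 0.18, adjusted p = 0.002, and -0.32 under TPM), and those lower were Rabggtb, a subunit of the enzyme that prenylates Rab proteins (-0.50, adjusted p = 0.0328), and Dhdds, of dolichol synthesis (-0.41, adjusted p = 0.0328). In D_MgHCF none was higher and 8 were lower than in DOX, beside 31.4% and 20.1% of all genes. That split was 3 and 4 under TPM, 0 and 10 under quantile normalization and 3 and 5 over summed reads. Against Unt none was higher in D_MgHCF and 7 were lower, beside 24.3% and 15.7% of all genes. Coq2 (-2.57 ± 0.36, adjusted p = 0.000201) and Fnta, the other farnesyltransferase subunit (-2.06 ± 0.22, adjusted p = 3.35e-05), had the largest falls against DOX, and both were called lower under all 4 scalings.

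All 10 genes of fatty acid synthesis, a branch known more for SREBP1 than SREBP2, were called higher in DOX against Unt, beside 18.6% of all genes, with a median change of 1.22, but the split was 3 higher and 4 lower under TPM and 5 and 3 under both quantile normalization and FPKM over summed reads. The median change was -0.07 under TPM, 0.25 under quantile normalization and 0.32 over summed reads. Acly, the source of cytosolic acetyl-CoA (2.16 ± 0.26, adjusted p = 7.92e-05), and Me1, the malic enzyme that yields NADPH (2.01 ± 0.18, adjusted p = 1.7e-05), had the largest rises and were called higher under all 4 scalings. None was higher and 6 were lower in D_MgHCF against DOX, beside 31.4% and 20.1% of all genes, led by Me1 (-2.48 ± 0.18, adjusted p = 5.07e-06) and the desaturase gene Scd2 (-1.77 ± 0.18, adjusted p = 2.48e-05, and -0.13 under quantile normalization), and the split was 4 higher and 3 lower under TPM, 3 and 3 under quantile normalization and 3 and 4 over summed reads.

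**Figure D5:**
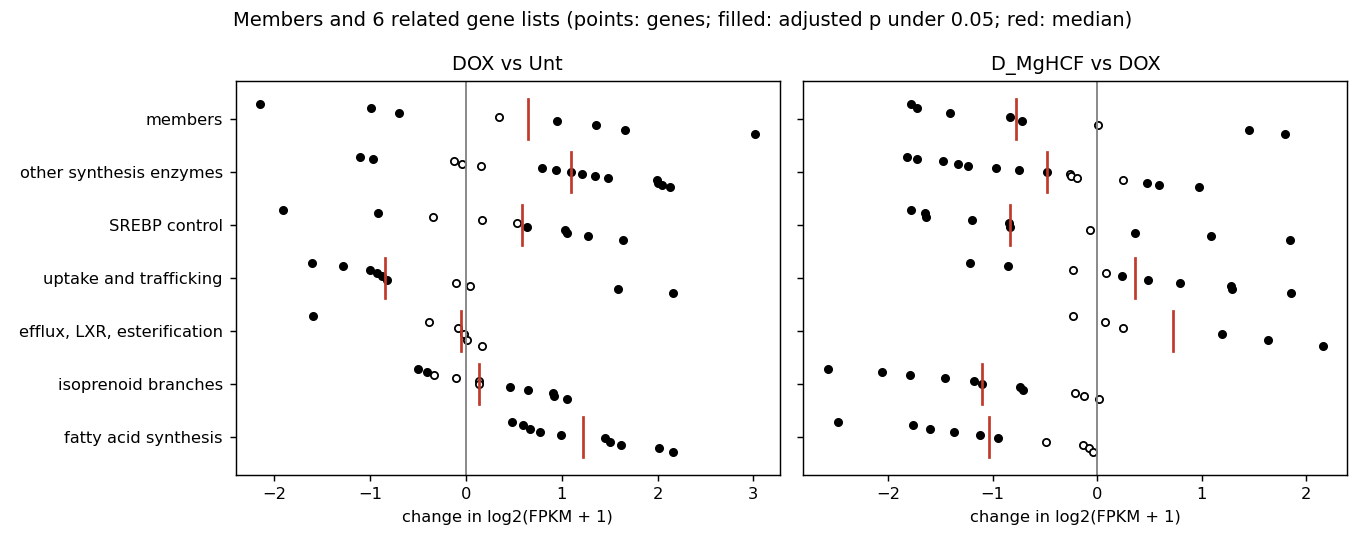
Differences in log2(FPKM + 1) (x axis) for the members and 6 related gene lists (y axis) in DOX against Unt and in D_MgHCF against DOX; points are genes, filled where the adjusted p was under 0.05, and red lines are medians. In DOX against Unt all 10 fatty acid genes lie right of 0, while the members and the uptake genes lie on both sides.

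The genes whose pattern over the 12 libraries was closest to that of Srebf2, by the root-mean-square difference of centred log2(FPKM + 1) among 13266 genes, were Copa (0.058), which encodes a coat protein of Golgi vesicles, Ehmt2 (0.059), a histone methyltransferase gene, and Rnf187 (0.074). Copa averaged 30.4 FPKM in Unt, 60.3 in DOX, 49.8 in D_DXZ and 23.2 in D_MgHCF. The genes closest to Hmgcs1 were Thap6 (0.099), Zbtb10 (0.137) and Lig4 (0.149), all of them lower than Hmgcs1 in level, with Thap6 at 1.41, 0.347, 0.712 and 2.70 FPKM in the same order of groups. These distances are descriptions over libraries that share their scaling.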

How the data were processed

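The authors sequenced poly(A) RNA from H9c2 cells with paired-end reads of 150 bp. The submitters' processing notes name HISAT2 2.0.5 and GRCm38, and the counting program is not given in the sources used here. The deposited values are FPKM per gene and library, with columns matched to the samples by group and number (the description labels of D_MgHCF carry the other name D_MgPB) and mouse Ensembl identifiers and coordinates, which equal GENCODE M21 for all 8 members. The product of deposited FPKM and gene length gave whole reads for 100% of the values (tolerance 0.05 reads), and the FPKM contained a median-ratio scaling.

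From these values, limma 3.58.1 (R 4.3.3) was run on log2(FPKM + 1) with trend and 1 fit over the 4 groups, for the 25044 genes that were above 0 in 3 or more libraries. The members and gene lists were chosen with earlier results of these data known. Named genes were the 8 members, Scap and Insig2, up to 2 largest rises and 2 largest falls called in each list (where the higher group averaged 1 FPKM or more) in DOX against Unt and D_MgHCF against DOX, and the 3 genes most like Srebf2 and Hmgcs1. Some genes that meet this rule are not reported here. BLAST 2.17.0 was used to find copies of the members (at least 95% identity over 150 bases). Alternatives were another pseudocount (0.1), other filters and thresholds, 3 other scalings, voom on recovered reads, each library left out, a fit with a replicate block and a fit of only 2 groups. Adding the reads of copies was chosen after seeing the data. The fit was tested on simulated data.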

Additional observations from a re-analysis of the deposited data

How the results depend on the processing

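Of the 8 members, 7 called in DOX against Unt became 4 with a 2-fold minimum. The 5 called in D_DXZ against Unt became 8 under TPM. The 2 called in D_MgHCF against Unt became 0 without a filter, with a 2-fold minimum or in a fit of the 2 groups, 4 at an unadjusted p or under quantile normalization, and from 0 to 5 when each library was left out. The 0 called in D_DXZ against DOX became 2 at an unadjusted p. The 8 called in D_MgHCF against D_DXZ became 5 without a filter, with a 2-fold minimum or under quantile normalization, 4 in a fit of the 2 groups or over summed reads, and 3 under TPM. The 7 called in D_MgHCF against DOX stayed within 1.5 times that count under every alternative, but the split by direction changed. It was 2 higher and 5 lower in the deposited FPKM and 4 and 1 under TPM. Under quantile normalization it was 2 and 3, and over summed reads 3 and 2. At an unadjusted p, 2388 of 25044 genes passed in D_DXZ against DOX and 12327 in D_MgHCF against Unt. Shares of all genes called are not given here for a 2-fold minimum, no filter, fits of 2 groups or a replicate block. Nor are they given for libraries left out other than D_MgHCF replicate 3. In those settings the counts do not show whether the members differed from all genes.

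Values called in either setting turned direction only under other scalings. In DOX against Unt, Srebf2 was at -0.39 (TPM) and -0.30 (quantile normalization), and Cyp51 at -0.98, -0.49 and -0.58 (summed reads). In D_DXZ against Unt, Srebf2 was at -0.47 (TPM), -0.29 (quantile normalization) and -0.048 (summed reads), and Cyp51 at -0.89 (TPM), -0.39 (quantile normalization, called in neither) and -0.47 (summed reads). In D_MgHCF against DOX, Cyp51 was at 0.46 (TPM) and 0.21 (summed reads). In D_MgHCF against D_DXZ, Cyp51 was at 0.36 and 0.11 and Insig1 at 0.46 and 0.21 under the same scalings. The cause was not tested. Of 1116 single-gene values under alternatives, 981 kept direction and side of the threshold, 72 lost the call in the same direction, 27 gained one and 36 turned, 16 of them called in either setting and 20 in neither. Of the 36, 28 turned under other scalings, 6 with a library left out and 2 otherwise. Those with a library left out were in D_DXZ against DOX (Cyp51 and Idi1) and D_MgHCF against DOX (Insig1, from 0.0039 to -0.23 without D_MgHCF replicate 3).

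Whether libraries of the same replicate number belong together is not settled by these values. The correlations of same-numbered deviations ranged from -0.409 to 0.422. Between D_DXZ and DOX they were 0.422, 0.053 and 0.352 for replicates 1, 2 and 3. A library correlated best with its own number in 18 of 36 pairings with another group. In D_DXZ against DOX 0 members were called with the replicate block. With the replicate block the members called remained 7 in number in DOX against Unt, and Cyp51 was called in D_MgHCF against Unt (-0.38, adjusted p = 0.0472) and Insig1 was not called in D_MgHCF against D_DXZ (-0.53, adjusted p = 0.0651).

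Fdps rests on as few as 66 reads in a library and on the split of reads between copies. Counting error alone does not limit the other members, which had at least 374 reads in each library.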
